A study of Arabidopsis thaliana with 6 samples.

Results

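The tonoplast intrinsic proteins (TIPs) of Arabidopsis thaliana were followed through 6 RNA sequencing libraries made from roots. The 10 members were taken by locus, TIP1-1 to TIP5-1, out of 24438 genes in the table, and all 10 had a row. Members are written in the hyphenated form of protein databases, TIP1-1 for the gene symbol TIP1;1. The plants were wild type, ecotype Columbia, at the vegetative stage, and the design set responses to aluminium oxide nanoparticles (nAl2O3) beside those to ionic aluminium (ion Al). The control, nAl2O3 and ion Al groups had 2 libraries each, and all 3 shared the genotype, stage and tissue. The sources used here do not give doses, exposure times or the growth medium. Whether both libraries of a group stem from different cultures is not labelled, so the p-values cover the spread between libraries, which may be technical. Libraries held 12318429 to 14489392 reads.

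TIPs are channel proteins of the vacuolar membrane, the tonoplast. They let water, and in some members urea, ammonia, glycerol or hydrogen peroxide, pass between the cytosol and the vacuole, which fills most of a mature plant cell. TIP1 and TIP2 members are the common forms of vegetative tissue, TIP3 members mark the protein storage vacuoles of seeds, and TIP1-3 and TIP5-1 are known from pollen.

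Levels are given as RPKM, which divides reads by gene length and by library total, so that members of different length can be set side by side. A read can be assigned to 1 member only where the members differ in sequence, so windows from the coding regions of both root subfamilies are shown. They start at the longest run of identical bases between the closest pair, and capitals mark bases unlike the first sequence of each set. The letters and coordinates are those of the RefSeq assembly TAIR10.1.
TIP1-1 (chr2:15445772-15445861, + strand): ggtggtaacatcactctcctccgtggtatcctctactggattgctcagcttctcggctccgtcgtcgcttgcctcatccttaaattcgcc
TIP1-2 (chr3:9723329-9723418, - strand): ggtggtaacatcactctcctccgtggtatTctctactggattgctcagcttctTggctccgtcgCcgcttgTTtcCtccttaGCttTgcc
TIP1-3 (chr4:625479-625568, - strand): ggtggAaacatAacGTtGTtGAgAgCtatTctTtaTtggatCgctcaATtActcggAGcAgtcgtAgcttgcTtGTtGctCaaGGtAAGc
TIP2-2 (chr4:9700104-9700193, + strand): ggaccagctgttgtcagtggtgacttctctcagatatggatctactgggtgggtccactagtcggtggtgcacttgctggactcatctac
TIP2-3 (chr5:19248566-19248655, - strand): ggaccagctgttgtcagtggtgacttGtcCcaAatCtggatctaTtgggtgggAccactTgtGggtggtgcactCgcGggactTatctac
TIP2-1 (chr3:5506642-5506731, + strand): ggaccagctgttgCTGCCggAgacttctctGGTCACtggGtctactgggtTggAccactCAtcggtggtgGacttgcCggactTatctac
All 6 windows lie inside a coding exon, the first exon for the TIP1 set, the second for TIP2-2 and TIP2-3 and the third for TIP2-1. Within 90 bases, TIP1-2 differed from TIP1-1 at 9 and TIP1-3 at 31, and TIP2-3 differed from TIP2-2 at 11 and TIP2-1 at 20. Over the whole coding region TIP1-1 and TIP1-2 were identical at 81.4% of aligned columns, with 29 bases as the longest shared run. TIP2-2 and TIP2-3 were identical at 81.6%, with a longest run of 26 bases. The sources used here do not give the read length or how reads matching several members were handled, and their part in the levels was not tested.

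TIP1-1 (AT2G36830), a water channel that also passes urea and hydrogen peroxide, was the most abundant TIP in every library. Its RPKM was 3221 and 1128 in control, 3788 and 4407 in nAl2O3, and 1119 and 1100 in ion Al. Among all genes it ranked 2 and 23 in control, 1 in both nAl2O3 libraries, and 45 and 38 in ion Al. The nAl2O3 libraries were the highest, the ion libraries the lowest, and control replicate 2 lay just above the ion libraries. TIP1-2 (AT3G26520), its close relative, stood at 2188 and 522 RPKM in control, 2419 and 2965 in nAl2O3, and 331 and 381 in ion Al. The 3 groups did not overlap for either gene. Between pairs of groups, 20.7% to 30.7% of all genes tested had no overlap in the same direction. The share of genes with all 3 groups apart was not counted.

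TIP2-2 (AT4G17340) and TIP2-3 (AT5G47450), members of a subfamily known to pass water and ammonia, followed. TIP2-2 had 1535 and 565 RPKM in control, 1988 and 2150 in nAl2O3, and 165 and 380 in ion Al. TIP2-3 had 696 and 311 RPKM in control, 842 and 939 in nAl2O3, and 72.2 and 139 in ion Al. Both were lowest in ion replicate 1, and again the groups did not overlap, beside the same shares of all genes. TIP2-1 (AT3G16240), the third member of that subfamily, behaved unlike them, with 203 and 41.9 RPKM in control, 194 and 221 in nAl2O3, and 214 and 112 in ion Al. Its lowest library was control replicate 2, and its ion libraries overlapped both other groups. An antisense long noncoding RNA, AT3G03265, and the gene PnsB3 overlap the TIP2-1 locus on the other strand. PnsB3 was at 0.167 to 1.12 RPKM, and AT3G03265 had no row. The sources used here do not give strand handling, so the level of TIP2-1 is uncertain.

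TIP4-1 (AT2G25810), which is known from roots and passes water and urea, was a minor member at 20.4 and 3.38 RPKM in control, 31.9 and 28.1 in nAl2O3, and 5.57 and 4.93 in ion Al. Control replicate 2 lay below both ion libraries, so control and ion overlapped. TIP1-3 (AT4G01470), known from pollen, had 0 reads in the 4 control and nAl2O3 libraries and 62 and 61 reads in ion Al, or 6.63 and 5.64 RPKM. Against a floor of 3 reads over the group, that was at least 43.5-fold higher than in control and at least 43.0-fold higher than in nAl2O3. TIP3-1 (AT1G73190), a channel of seed storage vacuoles, had 1 read, in ion replicate 2. TIP3-2 (AT1G17810), the other seed form, had 2 and 4 reads in control, 2 and 0 in nAl2O3 and 0 in both ion libraries. TIP5-1 (AT3G47440), the other pollen form, had 5 reads in ion replicate 1 and 0 elsewhere. Genes on the other strand overlap these 3, AT1G73200 at 14.9 to 19.6 RPKM for TIP3-1, AT1G17820 at 3.94 to 6.58 for TIP3-2 and NOA1 at 2.48 to 4.25 for TIP5-1. With strand handling unknown, their few reads may belong to those neighbours. The 3 genes were at the edge of detection at this depth, where 3 reads in a 1 kilobase gene correspond to 0.207 to 0.244 RPKM.

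**Figure D1:**
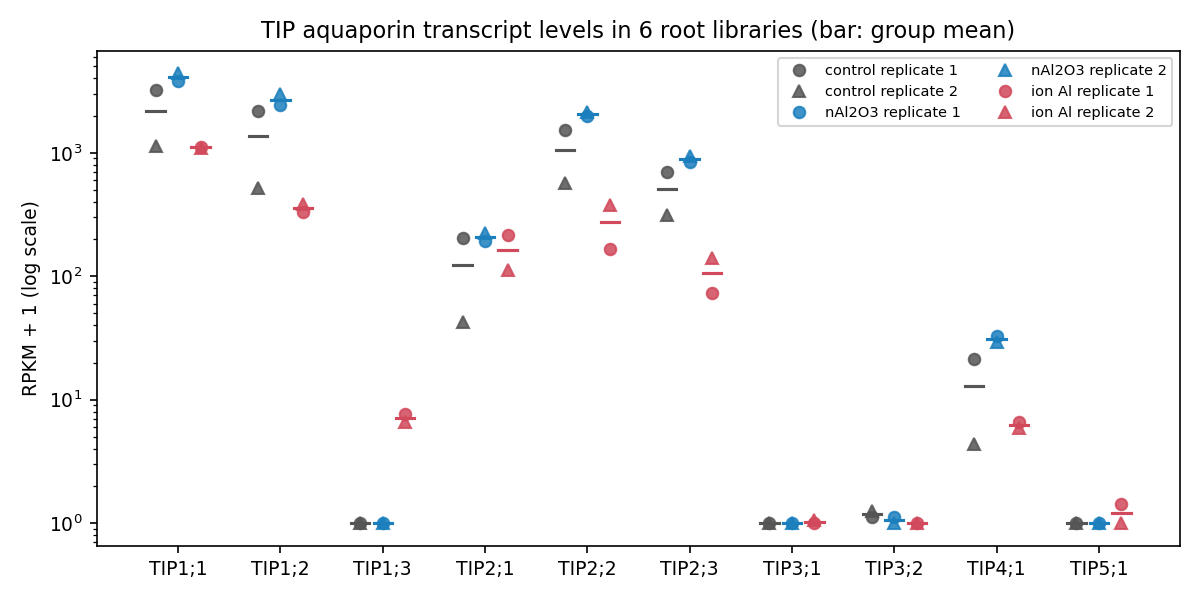
RPKM + 1 (log axis) of the 10 TIP genes in each library, with circles for replicate 1, triangles for replicate 2 and a bar at the group mean of RPKM + 1. TIP1-3 stands above 0 RPKM in ion Al alone, at 6.63 and 5.64, and control replicate 2 lies below control replicate 1 for all 6 members that are detected in every library.

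In nAl2O3 the order of levels was TIP1-1, TIP1-2, TIP2-2, TIP2-3, TIP2-1 and TIP4-1, and no neighbours in that order overlapped. By their means in ion Al the order was TIP1-1, TIP1-2, TIP2-2, TIP2-1, TIP2-3, TIP1-3 and TIP4-1. There TIP1-1 stood clear at the top and TIP1-3 and TIP4-1 well below the rest. The libraries of TIP1-2 and TIP2-2 overlapped, as did those of TIP2-2 and TIP2-1 and those of TIP2-1 and TIP2-3. In control, neighbours among TIP1-1, TIP1-2, TIP2-2 and TIP2-3 overlapped in range, although TIP1-1 was first in both libraries.

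The family as a whole took 7864 and 2572 RPKM in control, 9263 and 10710 in nAl2O3, and 1913 and 2124 in ion Al. In shares of all reads this was 0.853% and 0.275%, 1.001% and 1.16%, and 0.208% and 0.228%. The ion libraries were the lowest, with control replicate 2 next to them. A 2 against 2 design gives no exact permutation p below 0.333, so no p is given for the sums. In bulk roots, fewer cells of a type and less RNA per cell cannot be told apart.

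The make-up of the family also varied. TIP1-1 held 41.0% and 43.9% of summed TIP RPKM in control, 40.9% and 41.2% in nAl2O3, and 58.5% and 51.8% in ion Al. TIP1-2 held 27.8% and 20.3%, 26.1% and 27.7%, and 17.3% and 18.0% in the same order. The TIP2-1 share was 2.58% and 1.63% in control, 2.09% and 2.07% in nAl2O3, and 11.2% and 5.29% in ion Al. Each of these 3 shares was thus outside the range of the other 4 libraries in both ion libraries. The ratio of TIP1-1 to TIP1-2 was 1.47 and 2.16 in control, 1.57 and 1.49 in nAl2O3, and 3.38 and 2.88 in ion Al. Between TIP2-2 and TIP2-3 the ratio stayed between 1.81 and 2.72 in all 6 libraries. Between TIP2-2 and TIP2-1 it was 7.56 and 13.5 in control, 10.3 and 9.71 in nAl2O3, and 0.769 and 3.38 in ion Al. No test was made of these ratios.

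**Figure D2:**
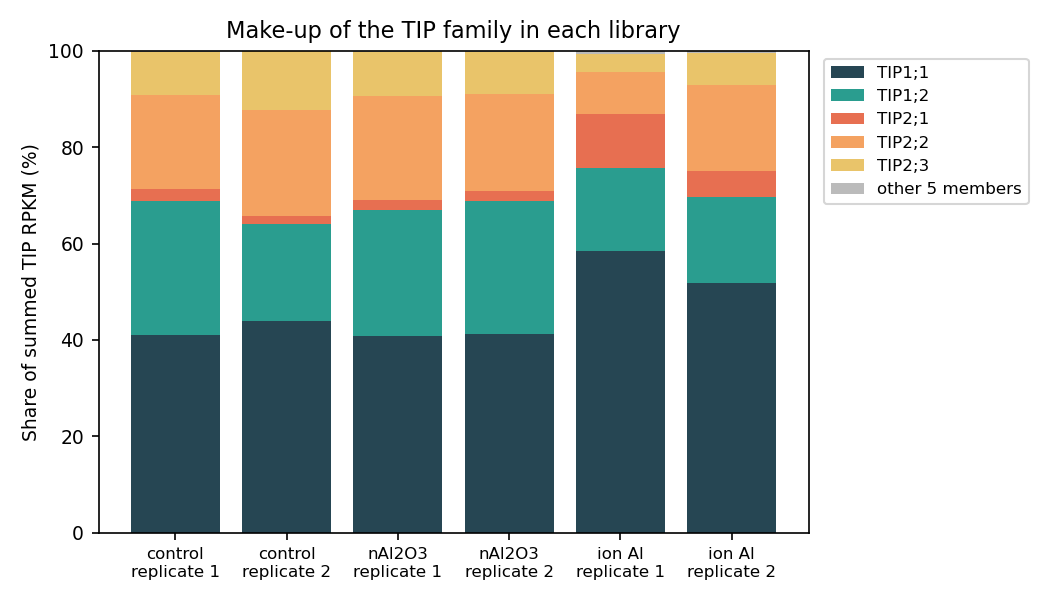
Share of summed TIP RPKM (percent) held by each member in each of the 6 libraries, as stacked bars. In ion Al the TIP2-1 share was 11.2% and 5.29%, against 1.63% to 2.58% in the other 4 libraries, and the TIP1-1 share was above 50%.

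Groups were compared with limma on log2(RPKM + 1) across 19648 genes, and Benjamini-Hochberg adjusted p under 0.05 over all of them counted as passed. Of the 10 members, 7 entered the test. TIP1-3 entered only through its ion libraries, so its test follows from that entry and is not given, and counts below are over the 6 members at RPKM 1 or more in every library.

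Ionic aluminium against nanoparticles gave lower levels for 5 of these 6 members. TIP2-3 fell by 3.13 ± 0.46 (log2, moderated SE, adjusted p = 0.00435), TIP2-2 fell by 3.04 ± 0.57 (adjusted p = 0.0108) and TIP1-2 fell by 2.91 ± 0.63 (adjusted p = 0.018). TIP4-1 fell by 2.31 ± 0.65 (adjusted p = 0.0415) and TIP1-1 fell by 1.88 ± 0.53 (adjusted p = 0.0435), both near the threshold. In reads per total, TIP2-3 was 8.23-fold, TIP1-2 7.53-fold, TIP2-2 7.39-fold, TIP4-1 5.74-fold and TIP1-1 3.70-fold higher in nAl2O3. TIP2-1 differed by -0.41 ± 0.69 and did not pass (adjusted p = 0.687). Across all genes 11.9% were called lower, 13.3% higher and 25.3% in either direction. The median log2 difference was -2.61 over the 6 members and 0.13 over all genes. Under median-of-ratios scaling the median of all genes was 0.0044, that of the 6 members was -2.74, and the same 5 passed. The split of all calls then moved from 2622 higher and 2347 lower to 1948 higher and 2769 lower. All 5 also had no overlap between the groups, as had 30.7% of all genes in that direction. Leaving out either ion or either nAl2O3 library ended calls. TIP2-3 alone of the 5 passed in all 4 such fits, and TIP2-2 passed without ion replicate 2, while the lost calls had values from -1.77 to -3.10. Without ion replicate 2, TIP2-1 stood at 0.047. The call for TIP1-1 was also lost with the replicate numbers as a block (adjusted p = 0.0516) and with no filter on low values (adjusted p = 0.116). That for TIP4-1 was lost with no filter (adjusted p = 0.0767) and with a pseudocount of 0.1 (adjusted p = 0.0524).

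Ionic aluminium against control, which asked how the dissolved metal alters root transcripts, gave 1 call among the 6. TIP2-3 fell by 2.20 ± 0.46 (log2, adjusted p = 0.0166), a level 4.70-fold higher in control. TIP2-2 differed by -1.89 ± 0.57 (adjusted p = 0.0554), TIP1-2 by -1.59 ± 0.63 (adjusted p = 0.115) and TIP1-1 by -0.78 ± 0.53 (adjusted p = 0.326). TIP4-1 differed by -0.63 ± 0.65 (adjusted p = 0.507) and TIP2-1 by 0.74 ± 0.69 (adjusted p = 0.466). Across all genes 10.3% were called lower, 12.3% higher and 22.6% in either direction. The median was -1.18 over the 6 members and 0.062 over all genes. The libraries of TIP1-1, TIP1-2, TIP2-2 and TIP2-3 did not overlap between control and ion, as was so, in the same direction, for 27.7% of all genes. TIP2-3 lost its call without ion replicate 1 (-1.73, adjusted p = 0.118). TIP2-2 passed with TPM (-2.01, adjusted p = 0.0354), with quantile normalization (-2.04, adjusted p = 0.028) and with voom on recovered reads (-1.90, adjusted p = 0.032).

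For TIP1-3 the reads stand in place of a test, 0 in 4 libraries and 62 and 61 in ion Al, and its size on a log scale is set by the pseudocount. The other pollen form, TIP5-1, did not share this level, and pollen markers were at or near 0 in all libraries. AGP11, VGD1 and VGDH1 had no row and the 1 detected gene of the 4 listed was at 0.0784 to 0.484 RPKM. The genes beside TIP1-3 on the chromosome, AT4G01460 and PPa5, were at 2.11 and 2.12 RPKM and at 127 and 200 RPKM in ion Al. In the other 4 libraries they were at 0.499 to 1.21 RPKM and at 81.4 to 143 RPKM.

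**Figure D3:**
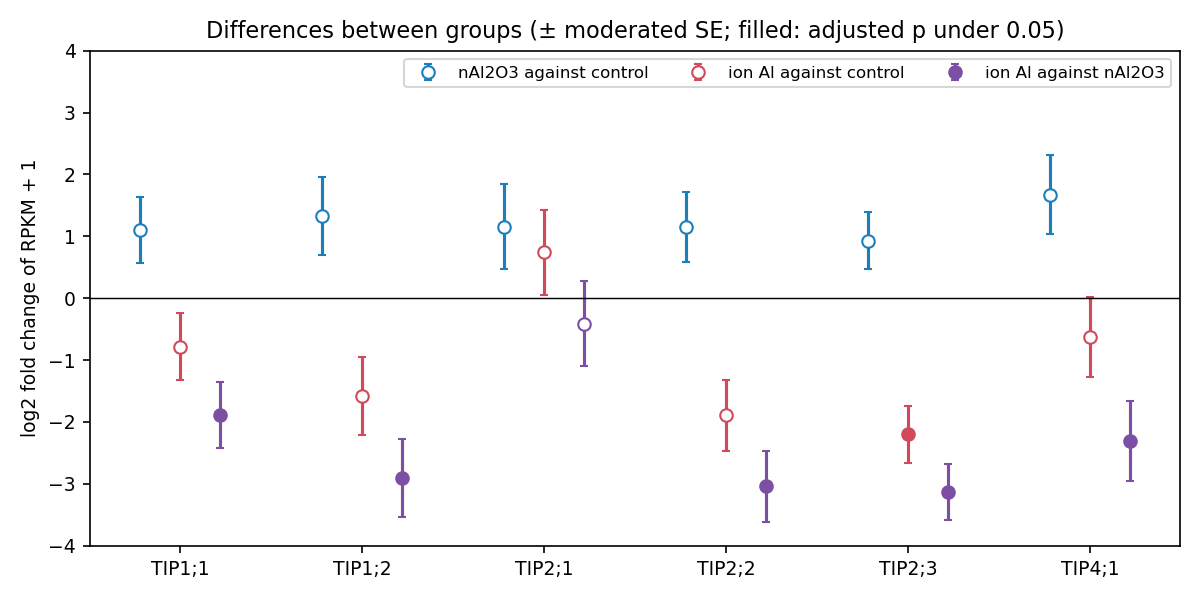
Log2 differences in RPKM + 1 (y axis, ± moderated SE) of the 6 TIP genes at RPKM 1 or more in every library for each pair of groups, with filled points where adjusted p was under 0.05. Ion Al was lower than nAl2O3 for 5 members and lower than control for TIP2-3, and no member passed between nAl2O3 and control.

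Nanoparticles against control gave no call for any TIP. TIP4-1 differed by 1.68 ± 0.65, TIP1-2 by 1.32 ± 0.63, TIP2-1 and TIP2-2 by 1.15 ± 0.69 and 1.15 ± 0.57, TIP1-1 by 1.10 ± 0.53 and TIP2-3 by 0.93 ± 0.46 (log2). All 6 adjusted p were 0.595 in limma. Of all 19648 genes, 0% were called by limma and 1307 had an unadjusted p under 0.05, among them 1 TIP, TIP4-1. Voom on recovered reads also called 0. TIP1-1, TIP1-2, TIP2-2, TIP2-3 and TIP4-1 had no overlap between the groups, with both nAl2O3 libraries the higher, as had 20.7% of all genes. Both aluminium comparisons with control share the same control libraries.

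Those control libraries were far apart for the TIPs. The log2 difference of replicate 2 from replicate 1 was -1.51 for TIP1-1, -2.07 for TIP1-2, -2.25 for TIP2-1, -1.44 for TIP2-2, -1.16 for TIP2-3 and -2.29 for TIP4-1. Thus 6 of 6 members were lower by more than 2-fold, against 7.63% of all genes tested, whose median difference was 0.029. In nAl2O3 and in ion Al no member was lower by 2-fold in replicate 2, and TIP2-2 was 2.31-fold higher in ion replicate 2 than in replicate 1. On the second principal component of all genes, with 19.4% of the variance, control replicate 2 stood at -68.4 and the other 5 libraries at -9.27 to 28.8.

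The calls differed with the control library used. Without control replicate 2, the 6 members gave 5 lower calls in ion Al, against 11.6% of all genes called lower. TIP2-3 fell by 2.78, TIP1-2 fell by 2.62, TIP2-2 fell by 2.61, TIP4-1 fell by 1.78 and TIP1-1 fell by 1.54 (log2), with adjusted p from 0.0020 to 0.017. TIP2-1 turned to -0.39 (adjusted p = 0.469). Without control replicate 1, TIP2-3 stayed lower in ion Al at -1.62, where 17.4% of all genes were called lower. TIP2-1 was then higher by 1.86 (adjusted p = 0.00983), with 22% of all genes called higher, and TIP4-1 turned to 0.51 (adjusted p = 0.0825). In nAl2O3 against control replicate 2 alone, all 6 members were called higher, by 1.51 to 2.82, where 10.3% of all genes were. Against control replicate 1 alone no member was called and the median of the 6 was 0.35. In such fits the lone control library is assumed to vary like the other groups.

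**Figure D4:**
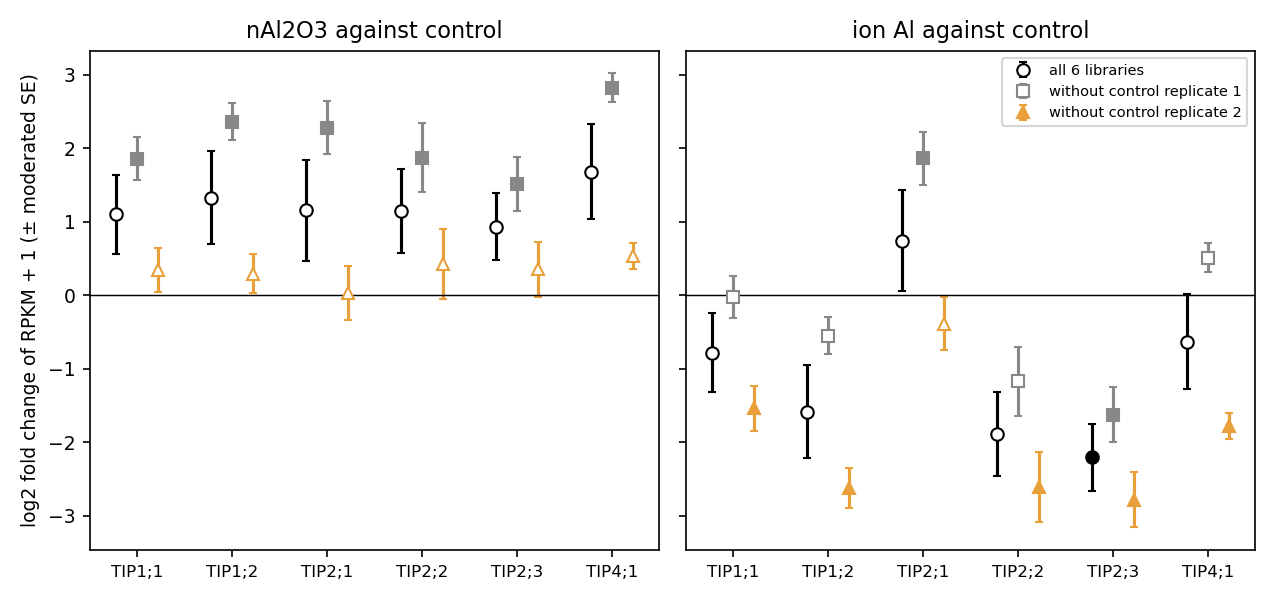
Log2 differences in RPKM + 1 (y axis, ± moderated SE) of the 6 TIP genes at RPKM 1 or more in every library, with all libraries and without either control library, filled where adjusted p was under 0.05. With control replicate 1 left out all 6 were called higher in nAl2O3, and with control replicate 2 left out 5 were called lower in ion Al.

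The other aquaporin subfamilies were counted in the same fit, where 10.3% of all genes were lower and 12.3% higher in ion Al against control, and 11.9% lower and 13.3% higher against nAl2O3. The medians of all genes were 0.062 and 0.13. The plasma membrane PIPs, which carry water across the cell surface, were at a summed 11352 and 6594 RPKM in control, 13052 and 15201 in nAl2O3, and 3425 and 3580 in ion Al. Of 13 tested PIPs, 6 fell and 2 rose in ion Al against control, with a median of -1.45. Against nAl2O3, 8 fell and 0 rose, with a median of -1.84. PIP2-4 fell by 4.52 ± 0.61 against control (adjusted p = 0.00343), from 279 and 63.2 RPKM to 5.54 and 4.24. Of 7 tested NIPs, which pass small solutes such as boric acid, 2 fell and 2 rose against control and 2 fell and 1 rose against nAl2O3. NIP3-1 fell by 2.83 ± 0.29 against control (adjusted p = 0.0014). NIP4-2, counted among those that rose in both comparisons, was at 1.14 and 2.06 RPKM in ion Al. In control it was at 0.081 and 0 RPKM, and in nAl2O3 at 0 and 0.0833. Like TIP1-3 it entered the test only through its ion libraries, so its calls follow from that entry. Of 3 SIPs, channels of the endoplasmic reticulum, SIP1-2 fell in both comparisons, by 1.16 ± 0.19 (adjusted p = 0.00699) and 1.46 ± 0.19 (adjusted p = 0.00274). No PIP, NIP or SIP passed in nAl2O3 against control.

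Other transporters of the tonoplast were counted in the same way. Of 23 tested, 5 fell and 3 rose in ion Al against control, and again 5 fell and 3 rose against nAl2O3. That is 34.8% in either direction in both comparisons, against 22.6% and 25.3% of all genes. In both, 21.7% were lower, against 10.3% and 11.9% of all genes, and 13% higher, close to the 12.3% and 13.3% of all genes. In nAl2O3 against control 0 passed. The median was -0.0064 and -0.34. TDT, the vacuolar malate transporter, fell by 2.60 ± 0.39 against control (adjusted p = 0.00534), from 116 and 47.5 RPKM to 12.2 and 10.6. TST1, which loads sugar into the vacuole, fell by 1.86 ± 0.22 (adjusted p = 0.00227). CAX3, a calcium and proton exchanger, rose by 2.37 ± 0.36 (adjusted p = 0.00551), from 5.01 and 3.89 RPKM to 18.1 and 39.8. NRAMP3, which exports iron and manganese from the vacuole, rose by 1.16 ± 0.17 (adjusted p = 0.00477). CLCa, the vacuolar nitrate exchanger, fell by 1.51 ± 0.19 against nAl2O3 (adjusted p = 0.00236). The pumps that energize this membrane, AVP1, VHA-a2 and VHA-a3, did not pass in either comparison. AVP1 was at 217 and 172 RPKM in control, 197 and 173 in nAl2O3, and 254 and 234 in ion Al. VHA-a2 was at 28.7 and 28.2, 28.0 and 27.9, and 18.6 and 22.3 in the same order. VHA-a3 was at 77.1 and 51.4, 79.6 and 82.7, and 49.3 and 50.4. Against nAl2O3, VHA-a3 differed by -0.69 ± 0.23 (adjusted p = 0.0657).

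Markers of root zones and cell types were read beside these values. All 18 root markers had a row, 13 at RPKM 1 or more in every library, with sums of 474 and 316 in control, 475 and 482 in nAl2O3, and 343 and 301 in ion Al. Of 17 tested, 4 fell and 0 rose in ion Al against control, and 4 fell and 3 rose against nAl2O3. Against control 23.5% were lower and 0% higher, where 10.3% and 12.3% of all genes were. Against nAl2O3 23.5% were lower and 17.6% higher, where 11.9% and 13.3% of all genes were. In either direction this was 23.5% against 22.6% of all genes, and 41.2% against 25.3%. EXPA7, an expansin of root hairs, fell by 2.40 ± 0.56 against control (adjusted p = 0.0251), and XCP1, a xylem protease, fell by 1.96 ± 0.17 (adjusted p = 0.000834). GL2 also fell against control, by 0.90 ± 0.23 (adjusted p = 0.0348), from 9.88 and 7.14 RPKM to 4.69 and 3.44. Against nAl2O3 GL2 differed by -0.76 ± 0.23 and did not pass (adjusted p = 0.0555). Other markers of root hairs and xylem did not all go the same way. RSL4 and COBL9, of root hairs, fell against nAl2O3, by 1.46 ± 0.33 (adjusted p = 0.0199) and 1.99 ± 0.35 (adjusted p = 0.00816). Against control RSL4 fell by 1.54 ± 0.33 (adjusted p = 0.0178) and COBL9 differed by -1.18 ± 0.35 (adjusted p = 0.0507). RHD6, of root hairs, was called higher in ion Al than in nAl2O3, by 1.03 ± 0.24 (adjusted p = 0.0246). RHD6 differed from control by 0.75 ± 0.24 and did not pass (adjusted p = 0.0685). VND7, of xylem, differed from control by -0.14 ± 0.27 (adjusted p = 0.74). The meristem regulators PLT1 and PLT2 were at 8.55 and 8.80 and at 6.50 and 7.16 RPKM in ion Al. In nAl2O3 they were at 4.24 and 3.05 and at 2.75 and 2.66, and in control at 4.65 and 8.31 and at 2.97 and 4.48. For CASP1, of the endodermis, control replicate 1 was the nearer to ion Al, with 187 and 82.9 RPKM in control and 163 and 130 in ion Al. For EXPA7 and COBL9 control replicate 2 was the nearer. EXPA7 had 14.2 and 2.97 RPKM in control and 0.629 and 0.340 in ion Al. COBL9 had 3.82 and 1.63 RPKM in control and 0.906 and 0.294 in ion Al. The 5 shoot markers summed to 94.9 and 105 RPKM in control, 31.3 and 120 in nAl2O3, and 19.5 and 21.0 in ion Al. Of the 5, 4 fell in ion Al against control and 2 against nAl2O3, where 10.3% and 11.9% of all genes were called lower. Seed maturation markers summed to 0.81 to 3.33 RPKM, and OLE1, OLE2, CRA1, CRC and EM1 had no row. The part of these cell types in the TIP levels was not tested.

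Genes outside the family followed the leading members closely. The likeness was Pearson's r of log2(RPKM + 1) over the 6 libraries, which share their groups and the outlying control, among 7433 genes at a mean RPKM of 20 or more. Nearest to TIP1-1 were PYL5, an abscisic acid receptor (r = 0.999), AT5G21940 (r = 0.997) and VHA-a3, a proton pump subunit of the tonoplast (r = 0.997). PYL5 was at 192 and 63.0 RPKM in control, 233 and 262 in nAl2O3, and 65.9 and 59.2 in ion Al. Nearest to TIP1-2 were TPX2 (AT1G65970), a peroxidase of the peroxiredoxin type (r = 0.999), AT3G52480 (r = 0.998) and PEX13, a peroxisomal import protein (r = 0.998). TPX2 was at 381 and 21.1 RPKM in control, 413 and 597 in nAl2O3, and 9.80 and 10.9 in ion Al. Nearest to TIP2-2 were SUMO3, CNI1 and NBR1, a cargo receptor of autophagy (r = 0.997, 0.996 and 0.996). Of the 7433 genes, 170 had r over 0.95 with TIP1-1, 213 with TIP1-2 and 249 with TIP2-2, so the genes named were not alone above that value. Among members, r was 0.989 for TIP1-1 and TIP1-2 and 0.992 for TIP2-2 and TIP2-3, but 0.268 for TIP2-1 and TIP2-2.

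The 250 bases before the annotated start are shown for TIP2-2 and TIP2-3, which varied together, and for TIP1-3, detected in ion Al. Capitals mark the motifs, which were searched on both strands and do not overlap each other in these windows. They were GNATATNC, the phosphate response site P1BS, TTGAC, the core bound by WRKY factors, ACGTG, the core of abscisic acid response elements, and TATAAA, the box of core promoters.
TIP2-2 (chr4:9698690-9698939, + strand): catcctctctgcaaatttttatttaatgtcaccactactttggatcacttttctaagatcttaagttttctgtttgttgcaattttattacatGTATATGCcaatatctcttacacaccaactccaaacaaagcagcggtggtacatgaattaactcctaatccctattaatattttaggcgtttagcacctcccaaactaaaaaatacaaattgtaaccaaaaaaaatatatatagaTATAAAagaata
TIP2-3 (chr5:19249623-19249872, - strand): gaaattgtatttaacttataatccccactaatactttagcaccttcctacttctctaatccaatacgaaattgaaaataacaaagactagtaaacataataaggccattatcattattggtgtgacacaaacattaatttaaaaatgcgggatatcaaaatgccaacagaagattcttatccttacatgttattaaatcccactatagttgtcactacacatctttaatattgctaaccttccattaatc
TIP1-3 (chr4:625886-626135, - strand): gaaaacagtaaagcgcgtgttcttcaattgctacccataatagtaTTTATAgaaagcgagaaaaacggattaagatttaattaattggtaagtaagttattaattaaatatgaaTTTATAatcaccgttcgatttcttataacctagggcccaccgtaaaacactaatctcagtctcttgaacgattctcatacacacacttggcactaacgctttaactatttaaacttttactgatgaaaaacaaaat
TIP2-2 held GNATATNC at -157 and TATAAA at -12 from the start, TIP1-3 held TATAAA on the reverse strand at -205 and -136, and TIP2-3 held none of the 4. GNATATNC stood in 1 of the 10 TIP promoters and in 5.46% of 27443 promoters of the genome. TTGAC stood in 5 of 10 against 44.9%, ACGTG in 3 of 10 against 22.9%, and TATAAA in 4 of 10 against 47.3%. These are letters in a window, and the gene models of the table, at 978 bases for TIP2-2, 1051 for TIP2-3 and 759 for TIP1-3, may begin elsewhere than those of RefSeq. The TIP1-3 model has the length of its coding region, 759 bases.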

How the data were processed

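Per the labels' protocols, Trizol was used to extract root RNA and a NEBNext Ultra kit to build libraries. The authors deposited RPKM values, per the name of their table, for 24438 genes. TopHat2 2.0.12, HTSeq 0.6.0 and the build TAIR10 are named, without roles, per the submitters' processing notes. Groups follow the titles. Other labels of nAl2O3 replicate 2 spell its compound nAl2O4.

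Reads were worked back from the steps between RPKM values. All 24438 genes came out whole within 1e-06 reads, or within a wider margin for genes with many reads. Library totals were set from 677 genes of known length. Gene lengths were recovered together with the reads, so whole reads alone do not check the recovery. Of 23677 genes with an annotated length, 2837 had a recovered length equal to their annotated exon length. A fold is the ratio of reads per library total, summed over each group. Floors cover counting error only.

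Differences were tested on log2(RPKM + 1) with limma 3.58.1 (R 4.3.3), a scale that understates changes of low genes. The 19648 genes (80.4%) that reached RPKM 1 in 2 or more libraries were tested. The 3 groups shared 1 two-sided fit with 3 residual and 3.81 prior degrees of freedom and a mean-variance trend. The procedure was run on simulated counts with the same dispersion in every library. That run does not cover a spread like that between the control libraries. Alternatives changed the pseudocount, filter, scaling, samples or weights, added a replicate block, ran voom on recovered reads, or left out each library.

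Members and lists were chosen with earlier results of these data known. All TIP members are named. Up to 4 called genes per other list and comparison, by size of log2 change, and the 3 genes most like each of the 3 most abundant TIPs may be named. The pumps and the markers PLT1, PLT2, RHD6, VND7 and CASP1 were named after their values were seen. Sequences and motifs come from RefSeq TAIR10.1.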

Additional observations from a re-analysis of the deposited data

How the results depend on the processing

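Of 340 recomputed values of the 7 tested members, TIP1-3 included, 303 kept direction and side of the threshold, 20 lost a call, 14 gained one and 3 changed sign. In ion Al against control every value of TIP1-3 was among the 303. As its call follows from its entry, the 303 overstates how steady the other members were. The sign changes came with 1 library left out. In ion Al against control TIP2-1 then ranged from -0.39, without control replicate 2, to 1.86, and TIP4-1 from -1.78 to 0.51, without control replicate 1. In ion Al against nAl2O3 TIP2-1 ranged from -0.88 to 0.047, without ion Al replicate 2. Genes called in ion Al against control numbered 4446, 2758 with only both compared groups in the fit, 2904 with library weights, and 1865 to 7732 with 1 library left out. Ion Al against nAl2O3 had 4969, then 8055, 8277 and 1351 to 8101. In nAl2O3 against control 0 became 3426 without control replicate 1 and stayed 0 without any other library. Of the 6 members at RPKM 1 or more in every library, calls were 1 in ion Al against control and 0 to 5 with 1 library left out, 5 and 1 to 5 in ion Al against nAl2O3, and 0 and 0 to 6 in nAl2O3 against control. With TIP1-3, whose call follows from its entry through the ion libraries, the first were 2 and 1 to 6, and the second 6 and 2 to 6. Tonoplast list calls were 8 in ion Al against control, 5 with only both groups and 4 to 10 with 1 library left out. Against nAl2O3 they were 8, 13 with only both groups, 13 with library weights and 4 to 13 with 1 library left out, and in nAl2O3 against control 0 and 0 to 3. The causes were not tested. Replicate numbers are shared between groups, but with 2 pairs they are only numbers. The correlation of replicate differences was -0.164 for control and ion Al, -0.0541 for control and nAl2O3 and 0.0755 for ion Al and nAl2O3. With a replicate block 3733 and 4043 genes were called in ion Al against control and against nAl2O3, and of the TIPs TIP1-1 lost its call against nAl2O3 (adjusted p = 0.0516). With 2 libraries a group, 3 residual degrees of freedom limit every p. At this depth TIP3-1, TIP3-2 and TIP5-1 could not be compared.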
